A study of Mus musculus with 8 samples.

Results

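Ubiquitin-conjugating (E2) enzymes were described here in mononuclear cells of mouse blood, as the protein-coding genes of the count table whose names begin with Ube2, leaving out Ube2c. The rule gave 36 genes of 56748 in the table, and used no measured value. Of these, 30 had enough reads to be tested, 2 (Ube2e2 and Ube2ql1) had 29 and 1 reads in all libraries together, and 4 (Ube2u, Ube2d2b, Ube2dnl1 and Ube2dnl2) had 0. A count of 0 allows a level of up to 0.158 to 0.330 CPM (reads scaled to the size of the library, with the TMM factors used throughout) by the limit of 3 counts and for counting error only. One gene, Ube2cbp, carries the prefix because its product binds an E2, and is not itself an E2.

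The study gave male wild-type C57BL/6J mice, 8 weeks old, either saline or fucoidan by daily gavage for 1 month, and asked how the blood transcriptome differs between them. Fucoidan is a sulphated polysaccharide of brown seaweed, here from Undaria pinnatifida, and the dose was 200 mg per kg per day. All animals ate the same basal diet. The 5 libraries of saline-fed and 3 of fucoidan-fed mice, whose titles call them biological replicates, were made from poly(A) RNA of cells separated on a density gradient. A treatment note attached to the fucoidan samples speaks of saline, but their titles and characteristics give fucoidan, and these were followed. The labels do not say that each library is 1 animal, so the tests measure the spread between these libraries.

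Ubiquitin is activated by an E1 enzyme, passed to the active-site cysteine of an E2, and attached to a target with the help of an E3 ligase. The E2 largely sets what kind of chain is built: some begin chains, some extend them through one lysine of ubiquitin, and a few carry ubiquitin-like proteins (SUMO, NEDD8 and ISG15) in place of ubiquitin. In blood the pathway is known both for the signalling of activated leukocytes and for the maturing red cell, which uses ubiquitin and the proteasome to clear proteins it no longer needs.

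Total counts ran from 13061703 to 16334932 per library. Red cell transcripts differed with the groups: 21 of 22 tested red cell markers rose with fucoidan and none fell by edgeR's test, at a median log2 change of 2.25. The share of counts from adult globin genes was 5.40 ± 1.88% (SD) in the 5 saline libraries and 17.3 ± 5.93% (SD) in the 3 fucoidan libraries (p = 0.0357 by a two-sided exact permutation test, the smallest that 56 arrangements allow). The summed level of the 19 red cell markers in the table other than globins ran from 3577 to 9657 CPM after saline, highest in replicate 3, and from 17065 to 42708 CPM after fucoidan, again highest in replicate 3. No red cell marker in the table was at 0. The markers of platelets (13 of 14 tested rose), natural killer cells (9 of 9 rose), T cells (4 of 11 rose) and B cells (8 of 10 fell) also moved. Some markers of monocytes (3 of 11 rose), plasma cells (2 of 5 fell) and dendritic cells (1 of 7 rose) were called too. Over all tested genes 9.11% rose and 4.65% fell. Of 10 neutrophil markers 0 passed edgeR's test (0 at an unadjusted p under 0.05, 0 by DESeq2 and 3 by limma-voom). The platelet sum was 2597 to 5408 CPM after saline and 7572 to 16068 CPM after fucoidan. Their part in the results below was not tested. In such mixed cells, more or fewer cells of a type and more or less RNA per cell cannot be told apart.

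As a family the E2 genes took a larger share of each library after fucoidan. Their share of all counts averaged 0.362 ± 0.0449% (SD, n = 5) with saline against 0.680 ± 0.150% (SD, n = 3) with fucoidan. The saline libraries held 0.341, 0.334, 0.441, 0.356 and 0.338%, and the fucoidan libraries 0.575, 0.613 and 0.851%, so the groups did not overlap. The difference in share lay in 2 genes, Ube2l6 and Ube2o. Together they made up 29.5, 30.3, 46.0, 35.0 and 25.7% of E2 counts in saline replicates 1 to 5 and 57.2, 60.2 and 74.1% in fucoidan replicates 1 to 3. As a share of all counts, the other E2 genes together overlapped between the groups. In CPM they stood at 2163 ± 118 (SD) with saline and at 2817 ± 313 (SD) with fucoidan. CPM is not a share of all counts, since it is divided by TMM factors. These were 1.02 to 1.17 in the saline libraries and 0.697 to 0.944 in the fucoidan libraries.

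**Figure D1:**
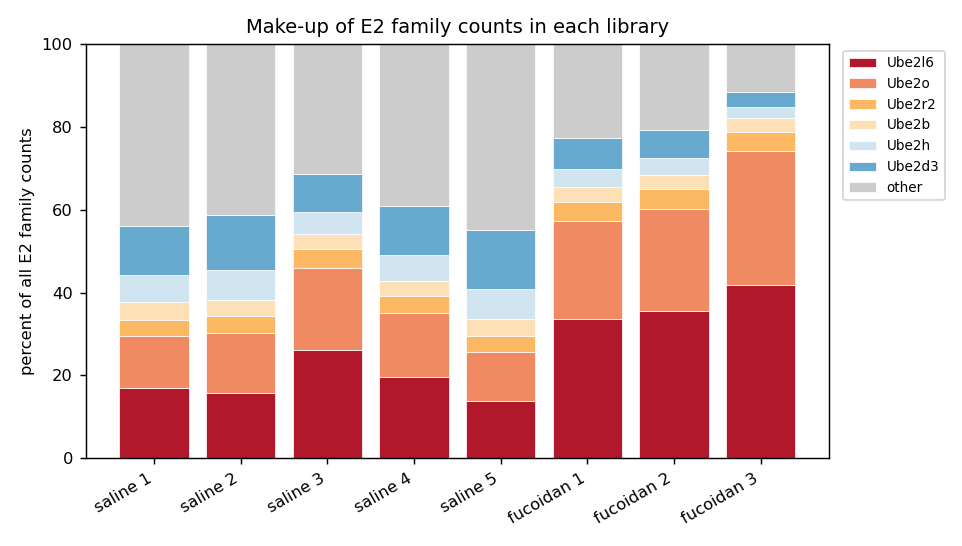
Share of all E2 family counts (percent, vertical axis) held by 6 genes and by the other members in each of the 8 libraries, as stacked bars that add to 100. Ube2l6 and Ube2o together take 25.7 to 46.0% of the saline bars and 57.2 to 74.1% of the fucoidan bars, and saline replicate 3 is the saline bar nearest to the fucoidan bars.

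Levels of different genes were compared per length, as TPM, which divides counts by the length column of the count table and rescales each library to the same sum. After saline Ube2l6 was the most abundant member at 905 ± 301 TPM (SD, n = 5), and below it stood Ube2o at 275 ± 77.6, Ube2b at 181 ± 9.50, Ube2h at 131 ± 13.8 and Ube2r2 at 94.6 ± 11.8 TPM. After fucoidan the order began with Ube2l6 at 2580 ± 563 TPM (SD, n = 3), Ube2o at 708 ± 198, Ube2b at 226 ± 19.3 and Ube2r2 at 153 ± 14.5 TPM, ahead of Ube2h at 105 ± 17.6 TPM. TPM is not TMM-scaled, so it serves to order genes within a group and not to compare the groups. Of the members called higher below, Ube2h, Ube2m and Ube2q2 averaged lower in TPM after fucoidan than after saline. Ube2d3 stood at only 47.4 ± 6.33 TPM after saline despite 388 ± 17.1 CPM, since the table gives it a length of 24499 bases, against 1996 bases for Ube2l6.

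Of the 30 tested members 9 rose with fucoidan and 0 fell, where 9.11% of all 14723 tested genes rose and 4.65% fell, 13.8% in all (edgeR's quasi-likelihood test, adjusted p under 0.05 over all tested genes). The median log2 change was 0.18 over the 30 members and -0.04 over all tested genes. The 9 that rose were Ube2l6, Ube2o, Ube2r2, Ube2b, Ube2e3, Ube2f, Ube2m, Ube2h and Ube2q2, of which the first 4 rose at least 2-fold. In all 9 the lowest fucoidan library lay above the highest saline library; over the 30 members 10 were separated in this way upwards and 1 downwards, against 11.6% and 11.0% of all tested genes (22.6% in either direction). At an unadjusted p under 0.05, 11 members were higher and 1 lower, and DESeq2 and limma-voom each called 10 higher and 0 lower. The 21 members not called had log2 changes of -0.42 to 0.42, with a median of 0.02. Without fucoidan replicate 3 the count that rose was 7, as it was without replicate 3 of both groups.

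**Figure D2:**
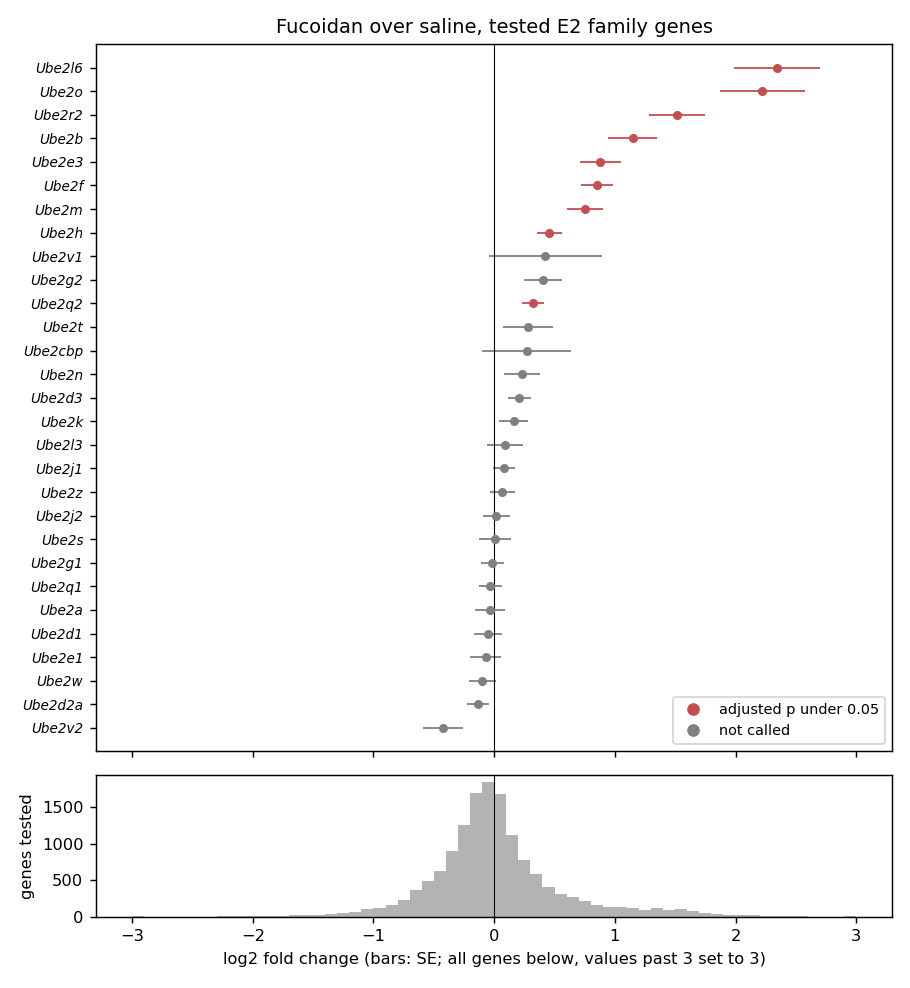
Log2 fold change of fucoidan over saline for tested members (upper panel, points with SE; red marks an adjusted p under 0.05) above the distribution of log2 fold changes of all 14723 tested genes (lower panel, number of genes). The 9 red points lie between 0.32 and 2.34, and the grey points between -0.42 and 0.42.

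Among the enzymes of ubiquitin-like proteins, 3 of 5 rose (60.0%, where 9.11% of all tested genes rose). Ube2l6, the E2 that attaches the interferon-induced modifier ISG15 (ENSMUSG00000027078, GRCm39 chromosome 2, 84629172 to 84640679), stood at 528, 462, 1132, 621 and 401 CPM in saline replicates 1 to 5 and at 2119, 2312 and 5118 CPM in fucoidan replicates 1 to 3. The highest library of each group was replicate 3, and the groups did not overlap. The difference was 5.06-fold (log2 2.34, SE 0.357, adjusted p = 0.00396 by edgeR). Both E2 enzymes of NEDD8, the modifier that switches on cullin ligases, also rose. Ube2m, which serves most cullins, stood at 45.8, 45.7, 60.8, 45.1 and 44.6 CPM after saline and at 72.7, 69.4 and 102 CPM after fucoidan, a log2 change of 0.75 (SE 0.149, adjusted p = 0.00791). Ube2f, which serves Cul5, stood at 44.6, 32.2, 42.9, 42.2 and 38.3 CPM and at 65.1, 66.0 and 86.5 CPM, a log2 change of 0.85 (SE 0.132, adjusted p = 0.00396). Fucoidan replicate 3 was the highest library for both genes. Ube2z, which works with the modifier FAT10 as well as with ubiquitin, was at 100.2 ± 9.08 CPM (SD, n = 5) and 105 ± 7.01 CPM (SD, n = 3) and was not called.

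The promoters of Ube2l6 and of its closest relative Ube2l3 are shown because the first rose and the second was not called, and likewise those of Ube2b and Ube2a. They are RefSeq windows of GRCm38.p6, a different build from that of the gene coordinates above, from 250 bases before to 50 after an annotated start, and 29 of the 36 members have at least 1. Both annotated starts of Ube2b are given. Capitals mark the letters CCNCNCCC on either strand, a CACCC-type box of the kind bound by Krüppel-like factors, where adjoining matches run together.
Ube2l6 (chr2:84798578-84798877, plus strand): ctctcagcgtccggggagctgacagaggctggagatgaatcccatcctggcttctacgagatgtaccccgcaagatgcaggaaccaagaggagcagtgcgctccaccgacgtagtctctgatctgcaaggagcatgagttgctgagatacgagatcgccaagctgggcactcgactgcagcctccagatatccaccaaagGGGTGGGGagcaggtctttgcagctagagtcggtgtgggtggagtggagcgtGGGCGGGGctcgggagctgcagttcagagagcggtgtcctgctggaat
Ube2l3 (chr16:17201443-17201742, minus strand): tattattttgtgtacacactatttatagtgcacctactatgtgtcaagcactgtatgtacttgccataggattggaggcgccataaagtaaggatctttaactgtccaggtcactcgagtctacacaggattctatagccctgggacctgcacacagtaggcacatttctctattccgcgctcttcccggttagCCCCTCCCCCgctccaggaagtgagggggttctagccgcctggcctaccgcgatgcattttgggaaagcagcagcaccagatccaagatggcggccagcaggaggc
Ube2b first start (chr11:52000737-52001036, minus strand): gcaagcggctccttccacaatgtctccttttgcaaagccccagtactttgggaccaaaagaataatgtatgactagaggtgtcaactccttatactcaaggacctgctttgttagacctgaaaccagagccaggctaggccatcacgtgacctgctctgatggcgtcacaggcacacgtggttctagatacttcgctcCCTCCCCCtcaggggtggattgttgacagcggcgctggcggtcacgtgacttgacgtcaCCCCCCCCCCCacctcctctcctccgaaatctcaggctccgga
Ube2b second start (chr11:52000442-52000741, minus strand): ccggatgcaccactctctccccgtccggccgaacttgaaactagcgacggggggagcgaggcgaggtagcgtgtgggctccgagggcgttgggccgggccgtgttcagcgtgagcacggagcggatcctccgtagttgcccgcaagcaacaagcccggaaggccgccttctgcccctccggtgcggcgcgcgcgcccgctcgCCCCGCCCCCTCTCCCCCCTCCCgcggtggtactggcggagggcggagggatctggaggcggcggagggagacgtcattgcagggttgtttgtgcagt
Ube2a (chrX:36874045-36874344, plus strand): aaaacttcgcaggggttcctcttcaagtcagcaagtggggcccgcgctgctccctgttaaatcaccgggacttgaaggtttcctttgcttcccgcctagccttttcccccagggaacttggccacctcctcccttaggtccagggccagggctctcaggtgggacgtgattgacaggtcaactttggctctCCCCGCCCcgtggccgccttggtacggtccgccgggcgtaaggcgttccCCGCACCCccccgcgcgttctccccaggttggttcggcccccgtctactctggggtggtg
All 5 windows hold this box, as do 49.5% of the 32851 promoter windows in the table. Of the 29 members with a window, called or not, 26 have at least 1 that holds it. A GATA box (AGATAA or AGATAG, and the same with T as the first letter, either strand) is in none of the 5, and of the members' 40 windows it is in 2, of Ube2h and Ube2s, against 29.8% of all windows. The core of an interferon element (GAAA, any pair of bases, then GAAA again, on either strand) is in none of the 5, and in 3.44% of all windows. A match is a run of letters and not a measured site.

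The 2 enzymes best known from red cell maturation both rose, where 9.11% of all tested genes did. Ube2o is a large enzyme that acts as E2 and E3 in one and clears ribosomal and other proteins from mouse reticulocytes (ENSMUSG00000020802, chromosome 11, 116428566 to 116472273). It stood at 395, 428, 857, 489.6 and 343 CPM after saline and at 1481, 1601 and 3946 CPM after fucoidan, again with replicate 3 highest in both groups and no overlap. The difference was 4.66-fold (log2 2.22, SE 0.351, adjusted p = 0.00396), and log2 1.63 without fucoidan replicate 3. Ube2h, the E2 of the CTLH ligase, which is induced during red cell maturation (ENSMUSG00000039159, chromosome 6, 30211288 to 30304538), stood at 201, 214, 228, 198 and 210.2 CPM after saline and at 267, 270.3 and 329 CPM after fucoidan. Its change was smaller, 1.37-fold (log2 0.46, SE 0.105, adjusted p = 0.0153), and was not called without fucoidan replicate 3 (log2 0.36, adjusted p = 0.0747).

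**Figure D3:**
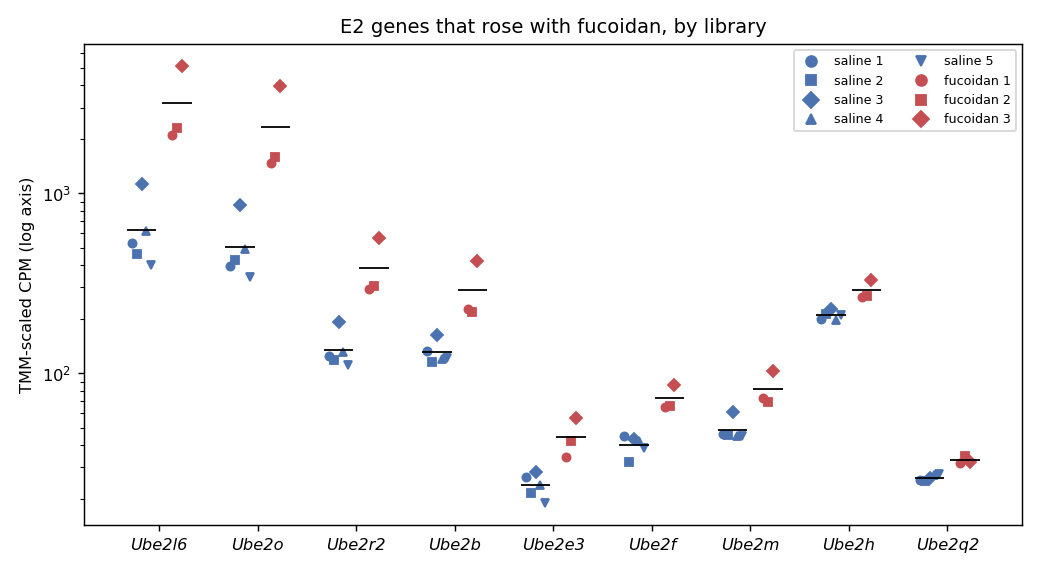
TMM-scaled CPM (vertical log axis) of the 9 members that rose, in each saline (blue) and fucoidan (red) library, with the marker shape giving the replicate and the black line the group mean. In all 9 the fucoidan points lie above the saline points; the gap is widest for Ube2l6 and Ube2o, and replicate 3 is the highest fucoidan library in 8 of the 9 and the highest saline library in 7.

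A further group of 8 held enzymes that extend chains or build chains linked through lysine 48, the signal for the proteasome. The homologues of yeast Rad6 and the enzyme Ube2t were counted with them. Of the 8, 2 rose (25.0%, where 9.11% of all tested genes rose). Ube2r2, a relative of yeast Cdc34 that extends chains on targets of cullin ligases (ENSMUSG00000036241, chromosome 4, 41135743 to 41193380), stood at 124, 118, 193, 131 and 111 CPM after saline and at 295, 304 and 562 CPM after fucoidan, a 2.86-fold difference (log2 1.51, SE 0.230, adjusted p = 0.00396). Ube2b, a Rad6 homologue that marks histone H2B and takes part in DNA repair (ENSMUSG00000020390, chromosome 11, 51876324 to 51891589), stood at 133, 115, 163, 120.0 and 121 CPM and at 228, 219.6 and 422 CPM, a 2.22-fold difference (log2 1.15, SE 0.204, adjusted p = 0.00521). In both genes saline replicate 3 was the highest saline library and the groups were apart. The other Rad6 homologue, Ube2a, stood at 24.7 ± 2.69 CPM (SD, n = 5) and 24.0 ± 3.03 CPM (SD, n = 3), and its log2 change was -0.03 (SE 0.127, adjusted p = 0.902). Ube2g2, which degrades proteins of the endoplasmic reticulum, stood at 60.1, 37.5, 46.0, 43.5 and 56.3 CPM and at 75.8, 58.9 and 58.6 CPM, with overlap. It was not called (log2 0.41, SE 0.158, adjusted p = 0.119 by edgeR). It was called with the replicate number as a block (adjusted p = 0.0422), by limma-voom (adjusted p = 0.031) and without saline replicate 1 (adjusted p = 0.0482). Ube2g1, Ube2k, Ube2s and Ube2t were not called, with log2 changes of -0.01 to 0.28. Ube2s, which extends chains in mitosis, had a log2 change of 0.0080 (SE 0.133) and lies across the ribosomal protein gene Rpl28 on the other strand, so that without a stated strand setting their reads may mix. Ube2t, the E2 of the Fanconi anaemia pathway, was low, at 3.10 ± 0.374 and 3.75 ± 0.548 CPM. Of 18 proliferation genes 1 rose (Tyms, log2 1.09, SE 0.231, adjusted p = 0.0107 by edgeR) and 0 fell. The share that rose was 5.56%, where 9.11% of all tested genes rose and 4.65% fell. DESeq2 called 2 higher, and limma-voom 2 higher and 1 lower. The call of Tyms was lost with the replicate block (adjusted p = 0.0711), without fucoidan replicate 1 (adjusted p = 0.0517) and without replicate 3 of both groups (adjusted p = 0.0636). The count that rose was 2 without fucoidan replicate 2 and 3 without saline replicate 2.

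Of 6 tested enzymes of the D, E and W groups, which place the first ubiquitin on a target, 1 rose. This is 16.7%, where 9.11% of all tested genes rose. Ube2e3 (ENSMUSG00000027011, chromosome 2, 78698468 to 78751637) stood at 26.7, 21.7, 28.4, 24.0 and 19.0 CPM after saline and at 34.4, 42.2 and 56.1 CPM after fucoidan, a 1.84-fold difference (log2 0.88, SE 0.169, adjusted p = 0.00668). The saline libraries ended below the lowest fucoidan library. Ube2d3, the most abundant of the D group by reads, stood at 373, 389.8, 398, 370.5 and 411 CPM and at 467, 438 and 441 CPM, which also did not overlap. Its log2 change of 0.21 (SE 0.0946) was not called by edgeR (adjusted p = 0.178) and was by DESeq2 (adjusted p = 0.0263). Ube2d1, Ube2d2a, Ube2e1 and Ube2w had log2 changes of -0.13 to -0.05 and were not called. Near-identical coding sequences of the D group, and a transcribed pseudogene of it with 898 reads over all libraries, mean that some of these reads may be assigned to the wrong copy.

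The enzymes of lysine 63 and linear chains, which carry signals from immune receptors rather than to the proteasome, were not called. Ube2n, the E2 of lysine 63 chains, stood at 58.3, 34.2, 46.6, 41.3 and 49.9 CPM after saline and at 54.7, 53.3 and 53.9 CPM after fucoidan, within the range of the saline libraries (log2 0.23, SE 0.149, adjusted p = 0.353). Of its catalytically inactive partners, Ube2v2 was at 7.72 ± 0.561 and 5.74 ± 1.06 CPM and Ube2v1 at 0.752 ± 0.341 and 1.03 ± 0.363 CPM. Per length, Ube2v2 and Ube2v1 stood at 3.22 ± 0.281 and 0.835 ± 0.417 TPM after saline. After fucoidan they stood at 1.47 ± 0.601 and 0.649 ± 0.225 TPM. Ube2v2 was the 1 member lower without overlap, at 7.14 to 8.49 CPM after saline against 5.33, 6.95 and 4.95 CPM after fucoidan, but did not pass (log2 -0.42, SE 0.167, adjusted p = 0.124). The Ube2v1 locus also holds a second protein-coding gene on the same strand, Gm20431, listed with 0 reads. How reads shared by both genes were counted is not stated, so the level of Ube2v1 may be too low. Ube2l3, which works with the ligases of linear chains and with Parkin, stood at 89.0, 52.9, 69.8, 62.2 and 66.7 CPM and at 76.3, 74.4 and 66.7 CPM, with overlap (log2 0.09, SE 0.147, adjusted p = 0.744).

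The membrane-bound enzymes Ube2j1 and Ube2j2, which serve degradation at the endoplasmic reticulum, were not called either. Ube2j1 stood at 93.3, 82.5, 93.8, 87.5 and 97.2 CPM after saline and at 97.7, 97.4 and 93.1 CPM after fucoidan (log2 0.08, SE 0.0900, adjusted p = 0.614). Ube2j2 was at 57.8 ± 5.99 and 58.5 ± 5.06 CPM. Of the Q group, whose roles are less well known, Ube2q2 (ENSMUSG00000032307, chromosome 9, 55056138 to 55114813) stood at 25.7, 25.1, 26.0, 27.2 and 27.6 CPM after saline and at 31.9, 34.8 and 32.0 CPM after fucoidan, apart in every library. It rose 1.25-fold (log2 0.32, SE 0.0927, adjusted p = 0.0407), the call nearest to the threshold, and was not called with the replicate number as a block (adjusted p = 0.112) or when any library but saline replicate 1 was left out (adjusted p = 0.0583 to 0.165). Ube2q1 stood at 156, 129, 137, 134 and 136 CPM and at 139.5, 126 and 140.4 CPM, with overlap (log2 -0.03, SE 0.0973, adjusted p = 0.873). The E2-binding protein gene Ube2cbp was at 1.55 ± 0.521 and 1.90 ± 0.657 CPM and was not called.

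Related members could be set against each other within a library, where the scaling of libraries has no part. In 10 pairs of related genes, chosen after the values had been seen, the log2 ratio of their counts (with 0.5 added to each count) was compared by exact two-sided permutation tests with adjustment over the 10 pairs. The ratio of Ube2l6 to Ube2l3 went from 3.12 ± 0.599 (SD, n = 5) to 5.34 ± 0.804 (SD, n = 3), a difference of 2.21 on the log2 scale. That of Ube2b to Ube2a went from 2.40 ± 0.234 to 3.53 ± 0.715, and that of Ube2e3 to Ube2e1 from 0.09 ± 0.167 to 1.02 ± 0.387. The ratios of Ube2g2 to Ube2g1, Ube2q2 to Ube2q1 and Ube2d3 to Ube2d2a were higher by 0.43, 0.35 and 0.34. In these 6 pairs the groups did not overlap and each exact p was 0.0357, the smallest possible, or 0.0595 after adjustment. None passed the correction. With this smallest p no pair could pass on its own values, however far apart, unless most of the 10 reached it too. The correction therefore decides nothing about a single pair. The pairs Ube2d3 and Ube2d1, Ube2j1 and Ube2j2, Ube2f and Ube2m, and Ube2v2 and Ube2v1 overlapped, with differences of 0.26, 0.06, 0.11 and -0.96 (exact p = 0.107, 0.50, 0.536 and 0.107). A changed ratio shows that both genes did not move alike, not that one of them stayed level.

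**Figure D4:**
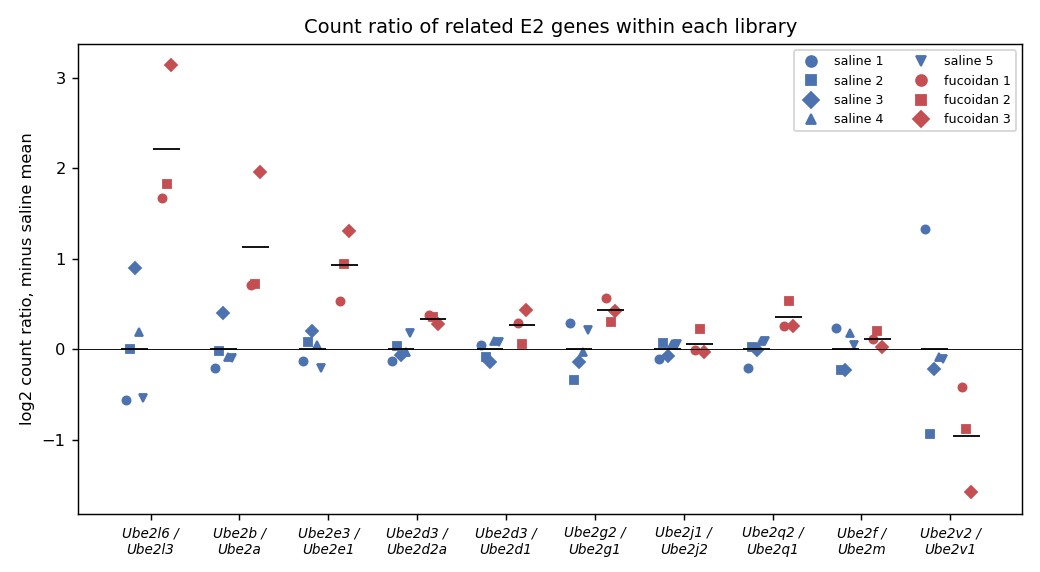
Log2 ratio of the counts of 2 related genes within each library, with the saline mean of the pair subtracted (vertical axis), for 10 pairs; colours give the group, shapes the replicate and black lines the group mean. The fucoidan points lie above all saline points in 6 pairs, furthest for Ube2l6 over Ube2l3 (mean difference 2.21) and Ube2b over Ube2a (1.13).

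The order of the libraries was set beside that of the red cell markers. Among saline libraries the red cell marker sum without globins was 4413, 4155, 9657, 5602 and 3577 CPM in replicates 1 to 5, and Ube2l6 at 528, 462, 1132, 621 and 401 CPM followed the same order, as did Ube2r2. Ube2o differed from it in the places of saline replicates 1 and 2, and Ube2b, at 133, 115, 163, 120.0 and 121 CPM, shared with it only the highest library and was lower in fucoidan replicate 2 than in replicate 1, where the markers were higher in replicate 2. Saline replicate 3 was the highest saline library for 7 of the 9 members that rose and for 4 of the 21 not called, and fucoidan replicate 3 the highest fucoidan library for 8 of the 9 and for 4 of the 21. Whether red cell content accounts for the rises was not tested, since every fucoidan library held more of these transcripts than every saline library.

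**Figure D5:**
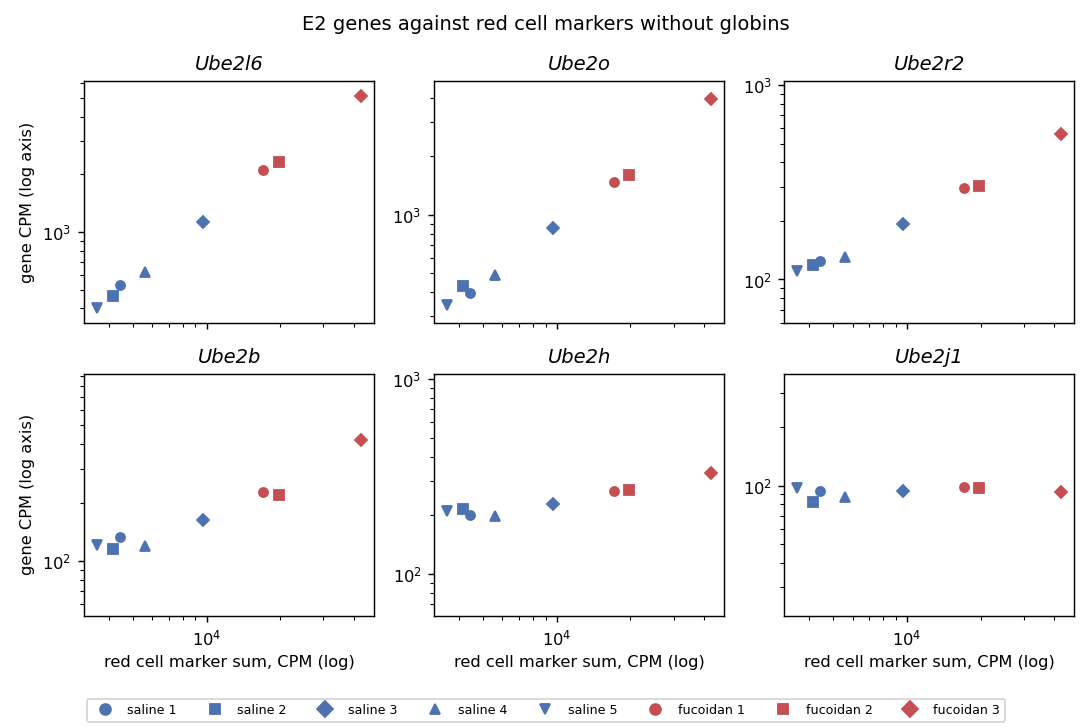
CPM of 6 members (vertical log axes) against the summed CPM of 19 red cell markers other than globins (horizontal log axis) in each of the 8 libraries; all panels are points without a fitted line. Ube2l6, Ube2o, Ube2r2 and Ube2b are highest in fucoidan replicate 3, where the marker sum is 42708 CPM, while Ube2j1, which was not called, lies between 82.5 and 97.7 CPM in all libraries.

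The E2 genes sit between ubiquitin itself, the E1 enzymes and the ligases, and 11 lists of those genes held 104 tested genes, of which 12 rose and 2 fell; the median over them was -0.01 (log2). The share that rose, 11.5%, was near the 9.11% of all tested genes, and 1.92% fell against 4.65%, so the lists as a whole did not stand out by their rises. The rises numbered 7 without saline replicate 4 or 5 and 6 without fucoidan replicate 3, while the falls numbered 6 when saline replicate 1 was left out, 1 when fucoidan replicate 2 was and 0 when fucoidan replicate 3 was. Of the 4 genes that encode ubiquitin, Ubb, a stress-inducible gene for a chain of ubiquitins, rose. It stood at 1109, 1184, 1856, 1382 and 1207 CPM after saline and at 2889.9, 2817 and 5459 CPM after fucoidan (log2 1.47, SE 0.235, adjusted p = 0.00396). The groups were apart, with replicate 3 again highest in each. Rps27a, which encodes ubiquitin fused to a ribosomal protein, had a log2 change of -0.78 and was not called (adjusted p = 0.0728). It was called lower with the replicate number as a block (adjusted p = 0.0170), by DESeq2 (adjusted p = 0.0258) and without saline replicate 5 (adjusted p = 0.029). Of the 10 E1 genes 0 passed edgeR's test (2 higher at an unadjusted p under 0.05, 0 by DESeq2 and limma-voom). Of the 8 tested E2 and E2-like genes without the prefix 0 passed (0 unadjusted, 0 by either other tool). Uba1, the main ubiquitin E1, was at 324 ± 24.2 and 387 ± 43.6 CPM (log2 0.25, SE 0.111, adjusted p = 0.164), and Uba7, the E1 of ISG15, at 139 ± 6.48 and 136 ± 5.55 CPM. Birc6 and Atg3, the highest by mean CPM of the genes without the prefix, had log2 changes of 0.10 and 0.04.

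Among partners of the members that rose, ISG15 itself was higher. Isg15, the modifier that Ube2l6 carries, stood at 22.7, 19.6, 38.4, 25.6 and 16.4 CPM after saline and at 86.3, 71.5 and 161 CPM after fucoidan, apart and with replicate 3 highest in each group (log2 2.11, SE 0.288, adjusted p = 0.00396). It was 1 of 6 genes of ISG15 conjugation to be called (16.7%, where 9.11% of all tested genes rose), with a list median of 0.16. Of 18 interferon response genes 4 rose and 0 fell: Rsad2 (log2 2.32, SE 0.371), Ifit1 (0.81, SE 0.186), Ifit2 (0.65, SE 0.167) and Oas3 (0.55, SE 0.128), with a list median of 0.13. The share that rose was 22.2%, where 9.11% of all tested genes rose and 4.65% fell. Without fucoidan replicate 3 the calls of Ifit1, Ifit2 and Oas3 were lost (adjusted p = 0.0769, 0.11 and 0.0742), Oasl1 was called (adjusted p = 0.0404) and the log2 change of Rsad2 was 1.70. Ifit2 was also not called without saline replicate 4 or 5 (adjusted p = 0.0561 and 0.0556), nor Oas3 without fucoidan replicate 1 (adjusted p = 0.0533). With the replicate block Ifit2 and Oas3 were not called (adjusted p = 0.0839 and 0.0567). Of 11 NEDD8 genes 1 rose, a share of 9.09% and near the 9.11% of all tested genes. This gene, Dcun1d1, helps Ube2m and Ube2f load cullins (47.8 ± 3.16 to 69.4 ± 7.06 CPM, log2 0.54, SE 0.0985, adjusted p = 0.00569 by edgeR).

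Of 11 subunits of the CTLH ligase, the partner of Ube2h, 4 rose and 0 fell by edgeR's test, and the list's median was 0.16 (log2). The share that rose was 36.4%, where 9.11% of all tested genes rose and 4.65% fell. Ypel5 averaged 108 ± 12.3 CPM with saline and 194 ± 71.6 CPM with fucoidan (log2 0.83, SE 0.190, adjusted p = 0.0146), the RING subunit Rmnd5a 131 ± 10.04 and 195 ± 54.4 CPM (log2 0.57, SE 0.151, adjusted p = 0.0296), Wdr26 315 ± 23.7 and 445 ± 107 CPM (log2 0.50, SE 0.146, adjusted p = 0.0432) and Ranbp10 85.9 ± 12.8 and 132 ± 42.3 CPM (log2 0.62, SE 0.183, adjusted p = 0.0453). Maea, the other RING subunit, was at 108 ± 8.37 and 121 ± 11.3 CPM and was not called (adjusted p = 0.335). Only Ypel5 of the 11 was called without fucoidan replicate 3, saline replicate 4 or saline replicate 5. The count was 2 with limma-voom, with upper-quartile factors and on leaving out fucoidan replicate 2 or either of saline replicates 1 and 3, and Wdr26 was not called with the replicate block (adjusted p = 0.0511).

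Of 12 cullin ligase components 3 rose and 1 fell, where 9.11% of all tested genes rose and 4.65% fell. Those that rose were Elob (log2 0.65, SE 0.123, adjusted p = 0.00629), Skp1 (0.49, SE 0.121, adjusted p = 0.0213) and Cul4a (0.46, SE 0.115, adjusted p = 0.0237), and the one that fell was Cul9 (log2 -0.49, SE 0.129, adjusted p = 0.0275). Of 14 ligases of lysine 63 and linear chains 1 rose and 1 fell, 7.14% each. Xiap rose (log2 0.38, SE 0.102, adjusted p = 0.0300) and Birc3, which is induced by NF-kB, fell (log2 -0.60, SE 0.130, adjusted p = 0.0116). Traf6 was at 69.4 ± 2.91 and 68.8 ± 9.87 CPM. Of 9 partners of Ube2a, Ube2b and Ube2t 1 rose (11.1%, near the 9.11% of all tested genes), Bard1 (log2 0.83, SE 0.216, adjusted p = 0.0272). Of 9 genes of degradation at the endoplasmic reticulum 0 passed edgeR's test (2 higher unadjusted, 1 by DESeq2, 0 by limma-voom), and of 16 SUMO genes 0 passed (3 lower unadjusted, 0 by DESeq2, 1 by limma-voom); Marchf6 stood at log2 0.34, and Ranbp2 and Senp6 at -0.18 and -0.05. Without fucoidan replicate 3 the calls of Bard1, Birc3, Cul4a, Cul9 and Xiap were lost (adjusted p = 0.157, 0.0620, 0.121, 0.0820 and 0.0972). Skp1 lost its call without fucoidan replicate 1 (adjusted p = 0.0949) or saline replicate 4 (0.0595), and Cul4a without saline replicate 5 (0.0527). With the replicate block Bard1 and Cul9 were not called (adjusted p = 0.101 and 0.0896).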

How the data were processed

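Raw read counts per gene of 8 libraries, as deposited by the authors, were used with the table's names, biotypes, lengths and GRCm39 coordinates. Per the submitters' processing notes, reads (pairs of 150 bases, per the labels) were processed with cutadapt 4.0, Trimmomatic 0.39 and HISAT2 2.2.1. The sources used here name no counting program, annotation release or strand setting.

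Low counts were removed by edgeR's filterByExpr (version 4.0.16, R 4.3.3); libraries were scaled with TMM factors and tested across the whole table with the quasi-likelihood test in robust mode, fucoidan over saline, with Benjamini-Hochberg adjustment over 14723 genes. The SE is the absolute log2 fold change over the square root of F. CPM values are TMM-scaled. TPM values divide the deposited counts by the table's gene length and rescale each library to the same sum. They are given for both groups, but were not tested between them and carry no TMM scaling. DESeq2 1.42.0 and limma 3.58.1 were alternatives, and scipy 1.17.1 gave the exact permutation tests. The procedure was tested on simulated counts.

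Every member is counted, but some genes are not reported here by name; values in each library are given for called members and, among the others, the most abundant of each role group per length. Of each other list up to 4 called genes, or the 2 highest by mean CPM, are named, with a few fixed names. The members and lists were chosen with earlier results of these data known, so lists were counted and not tested. The labels give 1 batch date. Same-numbered libraries of both groups correlated at 0.177, 0.233 and 0.144 after removal of the group means. Those of unlike number correlated at -0.261 to 0.144. For fucoidan replicates 1, 2 and 3 the same-numbered value was the highest, ahead of 0.0807, 0.144 and 0.0703. All these values were low, and whether a number marks a shared condition was not tested. The titles' replicate numbers were taken as pairs in an alternative fit with that number as a block. There, saline replicates 4 and 5 have no fucoidan partner and do not inform the contrast. The labels do not say what a number shares.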

Additional observations from a re-analysis of the deposited data

Results flagged for a closer look

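Among the 5 saline libraries, 1 library stood far from the other 4 in 4 of the 30 tested members and 1 of 27 pathway genes, where chance gives about 1 in 20. Saline replicate 3 was far above the others for Ube2m (gap 0.924 of the group's range), Ube2r2 (0.758) and Ube2o (0.714), and it is the saline library with the highest red cell marker sum, 9657 CPM against 3577 to 5602 CPM. Saline replicate 1 was above the others for Ube2q1 (0.716), at 156 CPM against 129 to 137 CPM. Saline replicate 5 was below the others for Ypel5 (0.779), at 87.0 CPM against 111 to 118 CPM.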

How the results depend on the processing

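Under 17 other fits (other scaling factors, DESeq2, limma-voom, other filters, the replicate block and libraries left out) the count of members that rose was 7 to 10, and 0 members were called lower in any. Leaving out 1 library gave 7 to 10. Ube2l6, Ube2o, Ube2r2, Ube2b, Ube2e3, Ube2f and Ube2m were called in all 17, with adjusted p of at most 0.0385. Ube2h lost its call in 2 and Ube2q2 in 11. Leaving out replicate 3 of both groups was chosen after seeing the data. With the replicate block 9 members rose, without Ube2q2 (0.112) and with Ube2g2 (0.0422); it changed no other member's call. Of all genes, 1341 rose and 684 fell; leaving out 1 library gave 746 to 1368 rises and 182 to 856 falls, leaving out replicate 3 of both groups 836 and 143, limma-voom 1063 falls and the block 439. Signs that changed were all of uncalled genes near 0: Atg3 at -0.0053 with upper-quartile factors and -0.025 without replicate 3 of both groups, and Traf6 at 0.0092 with median-of-ratios factors, 0.0098 with DESeq2 and 0.072 without replicate 3 of both groups. On leaving out 1 library, Ube2q1 ran from -0.055 to 0.018, Atg3 from -0.015 to 0.12, Birc6 from -0.025 to 0.20, Senp6 from -0.11 to 0.012 and Traf6 from -0.14 to 0.065. No scaling moved the median of all genes by over 0.1. The causes were not tested. Over the pathway lists the 12 rises became 6 to 12 on leaving out 1 library and 5 without replicate 3 of both groups; the 2 falls became 0 to 6 and 0, with 5 by upper-quartile factors, 4 by DESeq2 and 5 by limma-voom. Reads of Ube2a, Ube2e1, Ube2l3 and Ube2s may include reads of the genes Steep1, Nkiras1, Ydjc and Rpl28 that overlap them, and Ube2v1, Ube2t, Ube2v2 and Ube2cbp, under 10 CPM, are limited by depth.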

Other observations

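The processed pseudogene Ube2n-ps1, outside the protein-coding rows, had 27, 203, 10, 34 and 20 reads in saline replicates 1 to 5 and 23, 18 and 8 in fucoidan replicates 1 to 3. Saline replicate 2, with the 203 reads, had the lowest level of the parent gene Ube2n among saline libraries, 34.2 CPM. The transcribed pseudogene Ube2d-ps had 54 to 157 reads in each library. The other 4 rows with the prefix that are not protein-coding had 0 reads.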
